A study of Homo sapiens with 6 samples.

Results

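Immediate early transcription factors are made within minutes of a stimulus from genes whose promoters are kept ready, and their short-lived messages usually decline again within hours. This account follows 10 immediate early genes in heated tumours, most but not all of transcription factors, namely EGR1, FOS, FOSB, FOSL1, JUN, JUNB, ATF3, IER2, IER3 and MYC. They were taken by name, as every probe set that the platform's annotation pairs with one of them. All 10 were found, with 17 probe sets, out of 19775 genes and 54675 probe sets on the array. EGR1 and ATF3 had 3 probe sets each, JUN had 4 and the other 7 genes had 1 each, and 0 of the 17 named a further gene.

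The samples were tumours of HT-29, a human colorectal adenocarcinoma cell line that carries an activating BRAF mutation, grown as xenografts in both femoral regions of Balb/c (nu/nu) mice that were 6 to 8 weeks old at injection. These athymic mice lack most T cells but keep other host cells, and HT-29 is a single line. The treated group had its tumour heated on day 18 with an electromagnetic field for 30 min (modulated electro-hyperthermia) and was sampled 4 h later. The opposite-side group was the unheated tumour on the other flank of the same treated animals, taken at the same time, and the control group was tumours of control animals. The labels do not say whether control animals were sham-handled or how many tumours were combined, and they give no sampling hour for the control tumours. RNA came from macrodissected tissue sections, and that of each group was 1 pool, hybridised to 2 arrays that the labels call technical replicates. Differences between pools therefore had no replicate check between animals, no test between conditions was possible, and each SD below is that of 2 arrays of the same RNA. In such bulk RNA, fewer cells of a type and less RNA per cell cannot be told apart.

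Values are log2 expression as the authors deposited them, so a difference of 1 is a 2-fold difference. A level of 5 was used as a floor for calling a gene detected, and the size rule for a call had 3 conditions. Pool means had to differ by at least 1, the 4 differences between single arrays had to share a sign, and the higher pool had to reach the floor on both of its arrays. Where a pool lay below the floor, a fold was taken against the floor and is a lower bound. Of the 10 genes, 8 reached the floor in the treated pool, while FOSB and FOSL1 did not reach it in any pool. JUNB reached it only in the treated pool, so its presence among the detected genes was itself fixed by a difference.

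The EGR1 zinc finger factor, the FOS and JUN families and ATF3 are activated through overlapping routes. Growth factor and stress kinases act on serum response factor and its partners at CArG boxes, and on factors of the CREB and ATF type at cAMP response elements. FOS, FOSB and FOSL1 pair with JUN or JUNB to form the AP-1 dimer. MYC, which pairs with MAX at E-boxes and drives ribosome production and growth, is induced by the same signals and is also kept high by Wnt signalling in many colorectal cancers.

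The arrays of a pool were close to each other, with a median absolute difference of 0.050 to 0.059 over detected probe sets against 0.142 to 0.168 between arrays of different pools. For the 17 probe sets the widest gap between arrays of the same pool was 0.42, for FOS in the opposite-side pool. Of 14 colon epithelial markers 10 were detected, KRT18 at 13.39 in the treated pool, 13.37 in the opposite-side pool and 13.27 in the control pool, although CDX1 and GPA33 stood at the table's lowest value. All 6 heat shock genes listed as a check of heating were called higher in the treated pool than in either other pool, and HSPA6, an inducible HSP70, stood at 8.71 there, 5.82 in the opposite-side pool and 4.85 in the control pool.

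EGR1 was the member that differed most, and all 3 of its probe sets were called higher in the treated pool than in either other pool. Its brightest probe set read 8.33 and 8.21 on the treated arrays, 6.79 and 6.70 on the opposite-side arrays and 6.50 and 6.49 on the control arrays. Treated arrays lay apart from the rest, and opposite-side arrays lay slightly above control. The pool means were 8.27 ± 0.084, 6.75 ± 0.062 and 6.49 ± 0.011 in treated, opposite-side and control tumours (SD, 2 arrays each). This is 3.43-fold above control (log2 difference 1.78) and 2.88-fold above the opposite side (1.53).

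The other EGR1 probe sets gave differences in the same direction. The middle probe set read 6.63 and 6.62 in the treated pool, 5.32 and 5.72 in the opposite-side pool and 5.39 and 5.74 in the control pool, a difference of 1.06 from control and 1.11 from the opposite side. The dimmest read 5.30 and 5.14 in the treated pool, 3.54 and 3.74 in the opposite-side pool and 3.71 and 3.78 in the control pool. Its log2 differences were 1.47 from control and 1.58 from the opposite side, or at least 1.16-fold for both, since those pools lay below the floor. Between opposite-side and control tumours the 3 probe sets did not give the same direction, at 0.25, -0.05 and -0.11, and the arrays overlapped for the 2 dimmer ones. Counted from the largest positive difference, EGR1 was number 13 of 7204 genes detected in treated or control tumours, and number 8 of 7155 detected in treated or opposite-side tumours.

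The promoter of EGR1 is shown because it was the member called higher, beside those of FOS and JUN, which were not called. Each window runs from 250 bases before the transcription start to 50 after it, from RefSeq on GRCh38.p14. Capitals mark 3 kinds of letters on either strand, namely CArG boxes, the cAMP response element core TGACGT, and TGACNTCA, a site type bound by ATF and JUN proteins. The motifs were chosen with the windows in view.
EGR1 (chr5:138465229-138465528, plus strand): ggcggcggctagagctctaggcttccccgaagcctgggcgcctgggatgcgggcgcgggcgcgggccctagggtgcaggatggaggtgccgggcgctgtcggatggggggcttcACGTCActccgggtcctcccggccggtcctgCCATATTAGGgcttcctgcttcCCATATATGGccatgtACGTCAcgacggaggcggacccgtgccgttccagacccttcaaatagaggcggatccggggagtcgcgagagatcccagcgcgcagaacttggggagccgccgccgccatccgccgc
FOS (chr14:75278578-75278877, plus strand): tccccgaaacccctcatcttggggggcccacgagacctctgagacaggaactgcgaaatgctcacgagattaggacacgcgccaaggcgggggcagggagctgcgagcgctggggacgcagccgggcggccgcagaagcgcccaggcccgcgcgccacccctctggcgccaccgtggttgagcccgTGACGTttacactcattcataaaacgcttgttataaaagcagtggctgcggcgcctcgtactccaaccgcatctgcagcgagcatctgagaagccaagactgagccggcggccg
JUN (chr1:58783998-58784297, minus strand): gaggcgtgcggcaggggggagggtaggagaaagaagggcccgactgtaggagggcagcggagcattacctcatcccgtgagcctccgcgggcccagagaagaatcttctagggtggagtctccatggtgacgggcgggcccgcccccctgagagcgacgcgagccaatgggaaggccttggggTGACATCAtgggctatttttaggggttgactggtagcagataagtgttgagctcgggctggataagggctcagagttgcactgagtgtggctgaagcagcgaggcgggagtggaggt

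Promoter windows were given for 7 of the 10 genes, 8 windows in all since ATF3 had 2. EGR1 held 2 CArG boxes, at -105 to -96 and at -83 to -74 from the start, and no other of the 7 genes held one in its window. A CArG box occurred in 1.29% of 35116 windows of the same length. TGACGT occurred in EGR1 2 times, and in FOS and FOSB at -64 to -59 and -60 to -55, against 7.98% of all windows. TGACNTCA, which overlaps TGACGT where its free base is G, occurred in JUN at -67 to -60 and in 1 ATF3 window at -123 to -116, against 7.72%. The EGR site GCGNGGGCG occurred in EGR1 itself and in none of the other 6 genes, against 9.43%. The AP-1 site TGANTCA, the E-box CACGTG and the heat shock element occurred in 0 of the 8 windows, against 7.71%, 7.26% and 0.490% of all windows. A match is a run of letters and does not show binding, and known sites of these genes can lie outside the window.

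MYC was highest in the treated pool and intermediate in the opposite-side pool, with steps of similar size in the deposited values. Its probe set read 8.22 and 8.25 on the treated arrays, 7.77 and 7.64 on the opposite-side arrays and 7.30 and 7.17 on the control arrays. The 3 pairs of arrays did not overlap. The pool means were 8.23 ± 0.021, 7.70 ± 0.091 and 7.24 ± 0.091 (treated, opposite-side and control; SD, 2 arrays each). The treated pool thus lay 0.9995 above control, just under the minimum difference, and 0.53 above the opposite side, and the opposite-side pool lay 0.47 above control. With arrays scaled to spike-in controls the last 2 steps were unequal, at 0.34 and 0.64. MYC passed the rule against control at 1.01 when treated array 1 was left out, at 1.06 when control array 1 was left out and at 1.01 after quantile normalization. From the largest positive difference downwards it was number 46 of 7204.

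IER3, an immediate early gene linked to stress and cell survival, was higher in the treated pool without reaching the minimum difference. Treated arrays read 8.04 and 8.12, opposite-side arrays 7.31 and 7.22 and control arrays 7.38 and 7.36. The treated pool was 1.63-fold above control (0.71) and 1.76-fold above the opposite side (0.81). IER2, a nuclear immediate early protein, read 7.41 and 7.44 in the treated pool, 7.21 and 7.19 in the opposite-side pool and 7.26 and 7.42 in the control pool. Its treated and control arrays overlapped, at a difference of 0.08, and it lay 0.22 above the opposite side.

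Of the JUN family, JUNB was higher in the treated pool and JUN was nearly level with control. JUNB read 5.64 and 5.65 on treated arrays, 4.78 and 5.03 on opposite-side arrays and 4.99 and 4.98 on control arrays. The treated arrays stood alone, and the opposite-side and control arrays overlapped around the floor. The treated level was at least 1.56-fold that of either other pool, with log2 differences of 0.66 from control and 0.74 from the opposite side.

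JUN was measured by 4 probe sets. The brightest read 8.31 and 8.36 in the treated pool, 8.07 and 8.05 in the opposite-side pool and 8.20 and 8.20 in the control pool. Across the 4 probe sets the treated minus control differences were 0.14, -0.10, 0.12 and 0.26, so the sign was not shared. All 4 were higher in the treated than in the opposite-side pool, by 0.28 to 0.53 from the brightest to the dimmest, and all 4 were lower in the opposite-side than in the control pool, by -0.14, -0.46, -0.37 and -0.27. With arrays scaled to spike-in controls the brightest probe set lay 0.04 higher in the opposite-side pool than in the control pool. The dimmer ones lay further below control than the 0.18 by which that scaling moved these differences.

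FOS, the founding AP-1 partner of JUN, differed mainly through the opposite-side pool. It read 6.61 and 6.54 on the treated arrays, 5.59 and 6.01 on the opposite-side arrays and 6.52 and 6.38 on the control arrays. Treated and control arrays were close, at a difference of 0.13, while both opposite-side arrays lay below all the others. The treated pool was 0.77 above the opposite side, and the opposite-side pool was lower than control, at -0.65. These values rest on the pool whose 2 arrays were 0.42 apart: without opposite-side array 1 the difference from control was -0.44, and without array 2 it was -0.86.

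FOSL1, the Fra-1 subunit of AP-1, had treated values apart from the rest but below the floor. It read 4.50 and 4.35 in the treated pool, 3.17 and 3.23 in the opposite-side pool and 3.30 and 3.36 in the control pool. The log2 differences were 1.10 from control and 1.23 from the opposite side, and no fold is given since no pool reached the floor. With a floor of 4 it would be called higher in both comparisons. FOSB read 2.99 and 3.07 in the treated pool, 3.24 and 3.15 in the opposite-side pool and 3.07 and 3.07 in the control pool, and so lay near the table's lowest value of 2.37 on all arrays.

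ATF3, a stress-inducible repressor and activator of the CREB family, showed the smallest differences of the detected members. Its bright probe set read 6.33 and 6.34 on treated arrays, 6.28 and 6.38 on opposite-side arrays and 6.32 and 6.34 on control arrays. All 3 pools overlapped, with a treated minus control difference of 0.0035. The other ATF3 probe sets stayed between 2.37 and 2.46 on every array.

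**Figure D1:**
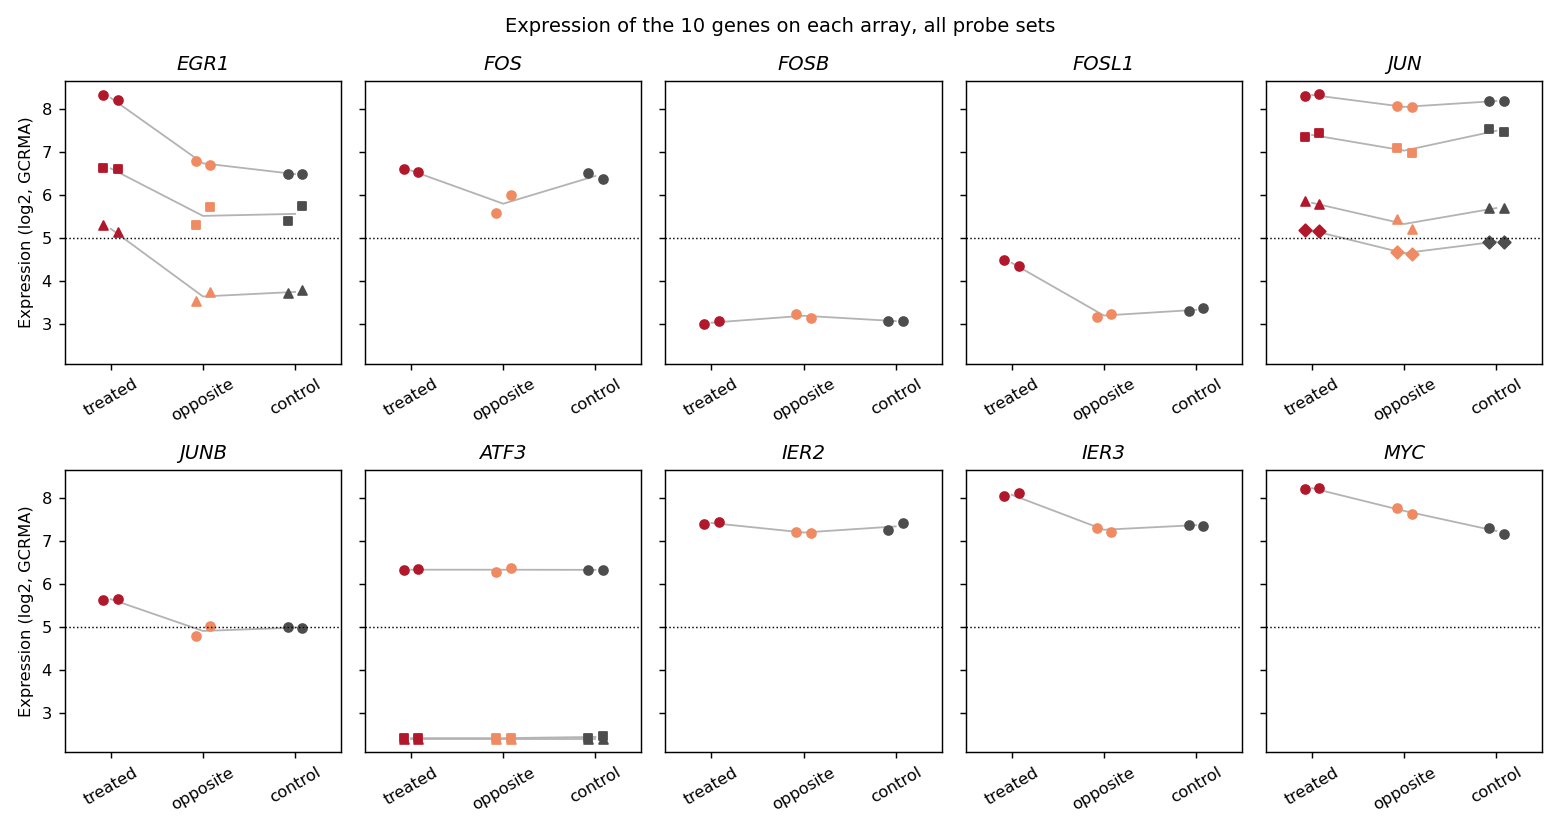
Log2 expression of the 10 genes on each array (vertical axis) in the treated, opposite-side and control pools. Each point is an array, marker shapes separate the probe sets of a gene, grey lines join pool means and the dotted line is the floor of 5. EGR1 at 8.33 and 8.21 on treated arrays stands clear of the other pools, MYC descends in steps, and ATF3 lies level at 6.28 to 6.38 in its bright probe set.

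At 4 h after heating 1 of the 8 detected members was called higher than control, EGR1, and 0 were called lower, where the rule called 0.625% of detected genes higher and 0.0972% lower (0.228% and 0.0354% of all 19775 genes). EGR1 was also the 1 of 8 called higher than the opposite side, where 0.28% of detected genes were called higher and 0.0559% lower (0.101% and 0.0202% of all). Arrays did not overlap for 6 of the 8 against control, all higher in the treated pool (EGR1, FOS, JUN, JUNB, IER3 and MYC), and 34.7% of detected genes were separated that way. Against the opposite side 7 of the 8 were separated, all higher, where 38.6% of detected genes were separated upwards and 33.2% downwards. JUNB reached the floor only in the treated pool, so its direction among the 6 and the 7 was fixed by the floor. With JUNB included, the median difference was 0.40 against control and 0.64 against the opposite side. Over the 7 members at the floor in both pools it was 0.14 and 0.53, beside -0.01 and 0.01 over all genes so chosen. The value against control thus depended on the floor, and with a floor of 4, which admits FOSL1, it was 0.66. FOSL1 then entered only through the treated pool (4.42, with 3.33 in control), so its direction was fixed by that floor. The comparisons with control and with the opposite side share the treated arrays.

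In the opposite-side pool 0 of 7 detected members passed the rule against control, where 0.237% of detected genes were called higher and 0.167% lower (0.086% and 0.0607% of all). Arrays were separated upwards for EGR1 (0.25) and MYC (0.47), against 34.0% of detected genes, and downwards for FOS (-0.65), IER2 (-0.14), JUN (-0.14) and IER3 (-0.11), against 42.4%. The opposite-side arrays stood apart in their 40 detected spike-in probe sets, whose median difference was 0.33 for treated minus opposite side, 0.11 for treated minus control and -0.18 for opposite side minus control. Scaling each array to a common median of these probe sets moved treated minus opposite differences by -0.19 and opposite minus control differences by 0.18. It used median levels, which were 7.67, 7.48 and 7.65 in the treated, opposite-side and control pools, and so removed less than 0.33. A shift of 0.33, which exceeds the unscaled differences of JUN (0.28) and IER2 (0.22), was not run. Members were then separated upwards for 7 and downwards for 1 of 8 against the opposite side, where 13.1% of detected genes lay higher and 69.0% lower. Under that scaling EGR1 lay 1.34, IER3 0.63, FOS 0.58, JUNB 0.55, MYC 0.34, JUN 0.09, IER2 0.03 and ATF3 -0.19 from the opposite side. Against control the opposite-side values became 0.64 for MYC, 0.43 for EGR1 and -0.47 for FOS. IER2, IER3, JUNB, FOSL1 and the brightest JUN probe set turned slightly positive, at 0.03 to 0.10. The dimmer JUN probe sets, at -0.46, -0.37 and -0.27 before scaling, lay further below control than the shift of 0.18. Over all genes this scaling gave 16 higher and 15 lower for treated against opposite side, in place of 20 and 4, and for opposite side against control it gave 32 higher and 4 lower, in place of 17 and 12.

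**Figure D2:**
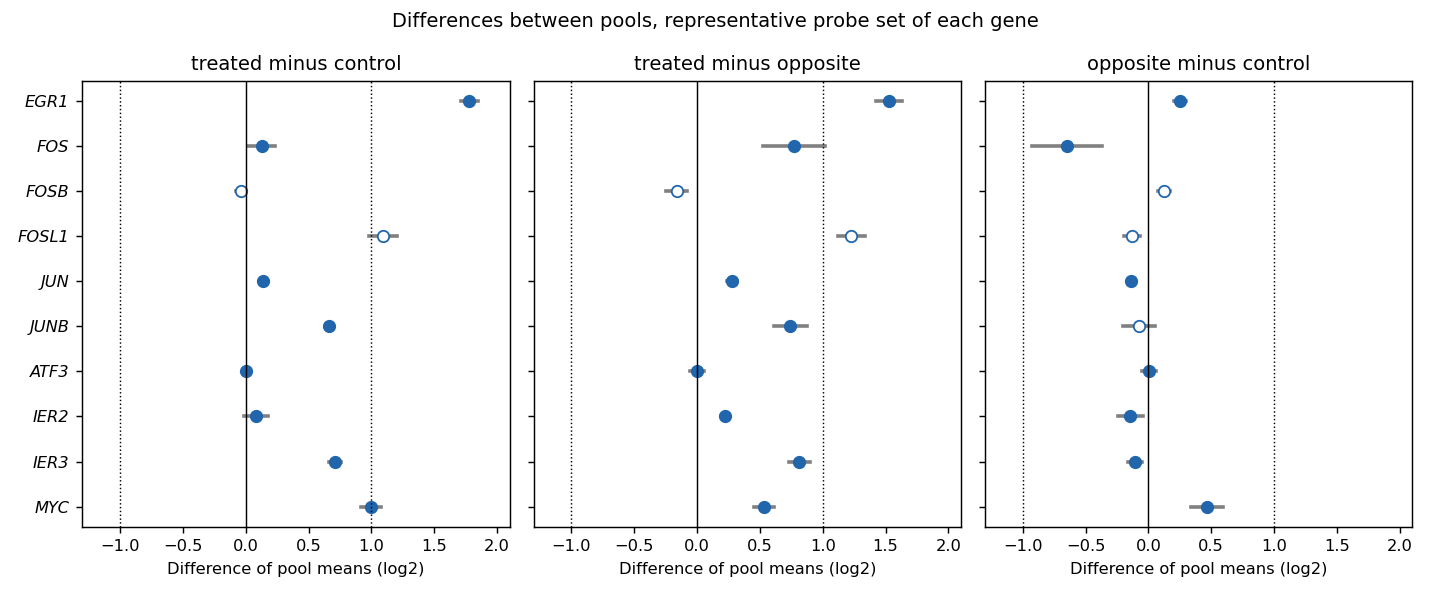
Log2 difference of pool means for the representative probe set of each gene (horizontal axis), in 3 panels for the 3 comparisons. Bars span the 4 array-to-array differences, open points had no pool at the floor of 5, and dotted lines mark differences of 1 and -1. EGR1 lies past the line in both comparisons of the treated pool, at 1.78 and 1.53, and MYC touches it against control at 0.9995.

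The remaining AP-1, MAF and EGR family genes were mostly undetected or differed little. Of 19 listed genes, 15 had a probe set of their own. Against control 6 were detected and 0 passed the rule, with a median difference of 0.19. FOSL2, a further FOS family member, was 0.60 above control by its brightest probe set and 0.09 by the next detected one. The AP-1 subunit partner ATF2 differed by 0.23, the EGR1 corepressor NAB1 by 0.19 and the small MAF protein MAFG by 0.19. Against the opposite side 0 of 7 passed, with a median of 0.24, or 0.05 with spike-in scaling.

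Among 35 other immediate early genes, 34 were measured and 26 detected, and 4 were called higher than control and 0 lower. The rule called 0.625% of detected genes higher and 0.0972% lower. PPP1R15A, SGK1 and SIK1 reached the floor only in the treated pool, so their direction was fixed by the floor. The list median was 0.26 with them and 0.24 over the 23 genes at the floor in both pools. PHLDA1, an early response gene linked to cell survival, read 7.08 and 7.01 in the treated pool, 6.34 and 6.24 in the opposite-side pool and 5.69 and 5.73 in the control pool. It was 2.52-fold above control, though of its other detected probe sets 1 differed by 1.55 and 1 by 0.25. SGK1, a kinase induced by serum and glucocorticoids, was at least 2.47-fold higher, at 6.33 and 6.28 in the treated pool, 6.12 and 6.06 in the opposite-side pool and 5.12 and 4.86 in the control pool.

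The matrix-associated proteins CCN1 and CCN2 were 2.05-fold and 2.09-fold above control. CCN2 stood near control in the opposite-side pool (0.11), whereas CCN1 was 0.49 above control there by its brighter probe set and 0.06 by its dimmer one, for which both pools lay below the floor. ID1, an inhibitor of helix-loop-helix factors, differed by 0.92 and the factor KLF10 by 0.74 without passing. Against the opposite side 0 of 26 genes passed (median 0.15, and -0.04 with spike-in scaling). In the opposite-side pool SGK1 alone of 25 was called higher than control, at no less than 2.13-fold, where 0.237% of detected genes were called higher. SGK1 reached the floor in that pool but not in control, so its direction was fixed by the floor.

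Of 9 listed factors, chiefly those that act on CArG boxes and cAMP response elements, 5 were detected and 0 passed in any comparison. ELK3, a partner of serum response factor, was 0.79 above control in the treated pool and 0.59 above it in the opposite-side pool. CREB1 differed by 0.22 from control and the serum response factor coactivator MRTFB by 0.05. ETS2, which was listed beside these factors, differed by -0.22. SRF itself did not reach the floor.

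Genes regarded as EGR1 or AP-1 targets gave 12 detected of 21 measured, and 1 passed against control, where 0.625% of detected genes were called higher. THBS1, the matrix protein thrombospondin, read 6.50 and 6.31 in the treated pool, 5.80 and 5.83 in the opposite-side pool and 4.59 and 4.58 in the control pool. It was at least 2.64-fold above control in the treated pool and at least 1.76-fold above it in the opposite-side pool, and its other probe sets had pool means of 2.37 to 3.13. PDGFB, a growth factor chain, differed by 0.78, the EGFR ligand EREG by 0.72 and the protease MMP14 by 0.57. THBS1, EREG, F3 and LIF were below the floor in the control pool and entered only through the treated pool. The list median was 0.49 against control with them and 0.30 over the 8 genes at the floor in both pools. Against the opposite side it was 0.17, or 0.11 over the 10 genes at the floor in both, and spike-in scaling gave -0.02.

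Of 16 MYC network genes 14 were measured and 9 detected, 0 passed in any comparison, and the median was -0.05 against control. MXI1, an antagonist that competes for MAX, was lowest, at -0.40 from control and -0.33 from the opposite side, while the dimer partner MAX differed by 0.28 and 0.53. MLXIP and MXD1, relatives that also pair with MAX or its homologue, differed by -0.24 and 0.22 from control.

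Of 30 target genes, largely of ribosome production and nucleotide or polyamine synthesis, 23 were measured, 20 detected and 0 passed. In the treated pool 15 of the 20 lay below control on all 4 array pairs and 4 above, where 40.5% of detected genes lay below and 34.7% above, with a median of -0.10. GRWD1 reached the floor only in the control pool, so its direction was fixed by the floor. Over the 19 targets at the floor in both pools the median was also -0.10. The polyamine enzyme ODC1 was highest, at 10.52 and 10.38 in the treated pool, 10.14 and 10.13 in the opposite-side pool and 9.97 and 9.99 in the control pool, a difference of 0.47 from control. FBL, the nucleolar protein fibrillarin, was lowest, at 9.51 and 9.52 in the treated pool, 9.67 and 9.69 in the opposite-side pool and 10.07 and 10.08 in the control pool, a difference of -0.56 from control. POLR1B, a subunit of RNA polymerase I, differed by -0.41 in its brightest probe set and by 0.02 in its second, and the ribosome assembly gene GRWD1 by -0.30.

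In the opposite-side pool 15 of 20 targets also lay below control, where 42.4% of detected genes did (median -0.20). GRWD1 again entered only through the control pool, and over the 19 targets at the floor in both pools the median was -0.20. After spike-in scaling 9 of 20 lay below and 7 above, where 17.3% of detected genes lay below and 65.7% above, with a median of -0.03. Treated minus opposite differences had a median of 0.09, which spike-in scaling turned to -0.10. The comparisons with control share the control arrays.

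**Figure D3:**
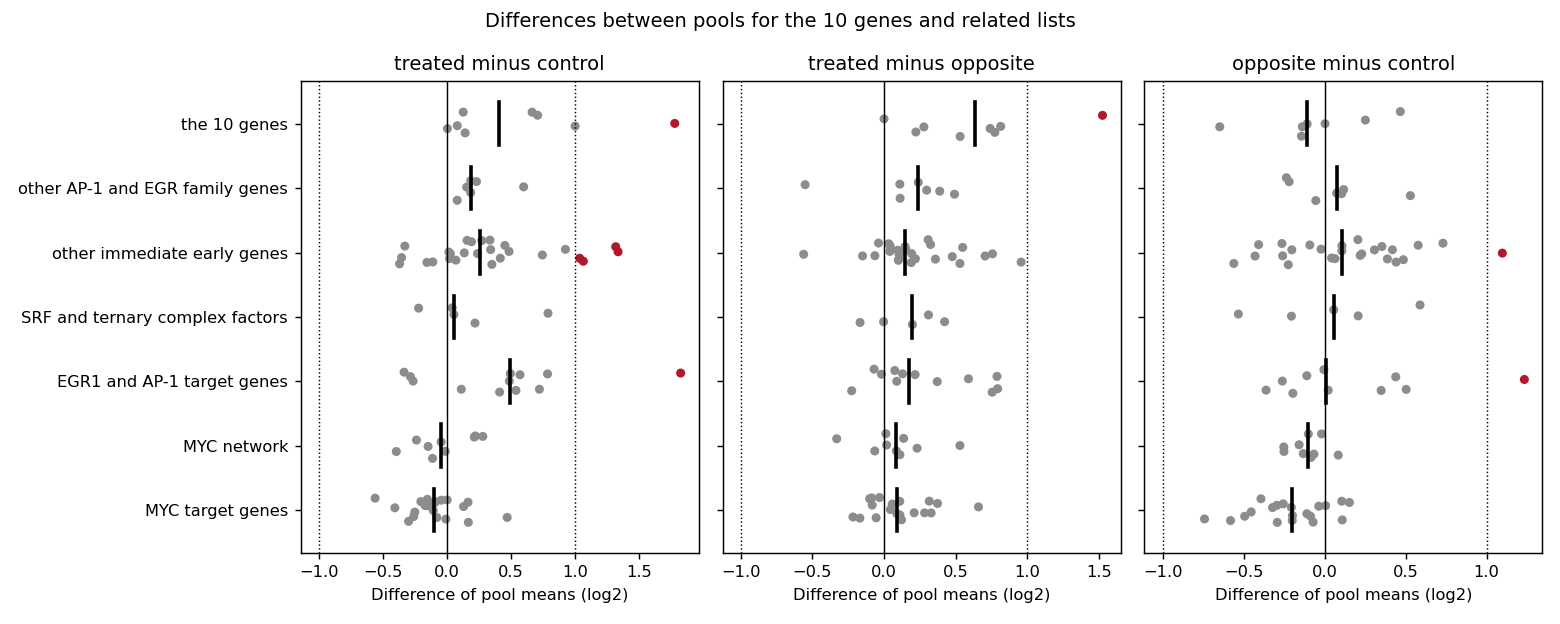
Log2 differences of pool means (horizontal axis) of the detected genes in each list, a point per gene, in 3 panels for the 3 comparisons. Black bars are list medians, red points passed the size rule and dotted lines mark 1 and -1. Against control 4 other immediate early genes and THBS1 pass beside EGR1, and most MYC targets lie left of 0, with a median of -0.10.

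The genes with the pattern nearest to EGR1 and to MYC were sought over the 3 pool means, each centred on its own average, among 7266 other genes with a pool at the floor. The measure was Euclidean distance in log2 units, and with 3 pools it describes a shape only. LGR5 and SERPINA3 lay below the floor in some pools, LGR5 in the opposite-side and control pools and SERPINA3 in the control pool, so their differences and distances rest partly on undetected values. Nearest to EGR1 were ZFAND2A (distance 0.04), BAG3 (0.12), LGR5 (0.24), DNAJB1 (0.25) and HSPB1 (0.27). Their treated minus control differences ran from 1.40 for HSPB1 to 1.91 for DNAJB1, and their opposite minus control differences from 0.04 for DNAJB1 to 0.42 for BAG3. Nearest to MYC were MMD, CCN1, DUSP6, UBE2G1 and SERPINA3, at distances of 0.03 to 0.04. They lay 0.95 to 1.05 above control in the treated pool and 0.46 to 0.52 above it in the opposite-side pool.

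**Figure D4:**
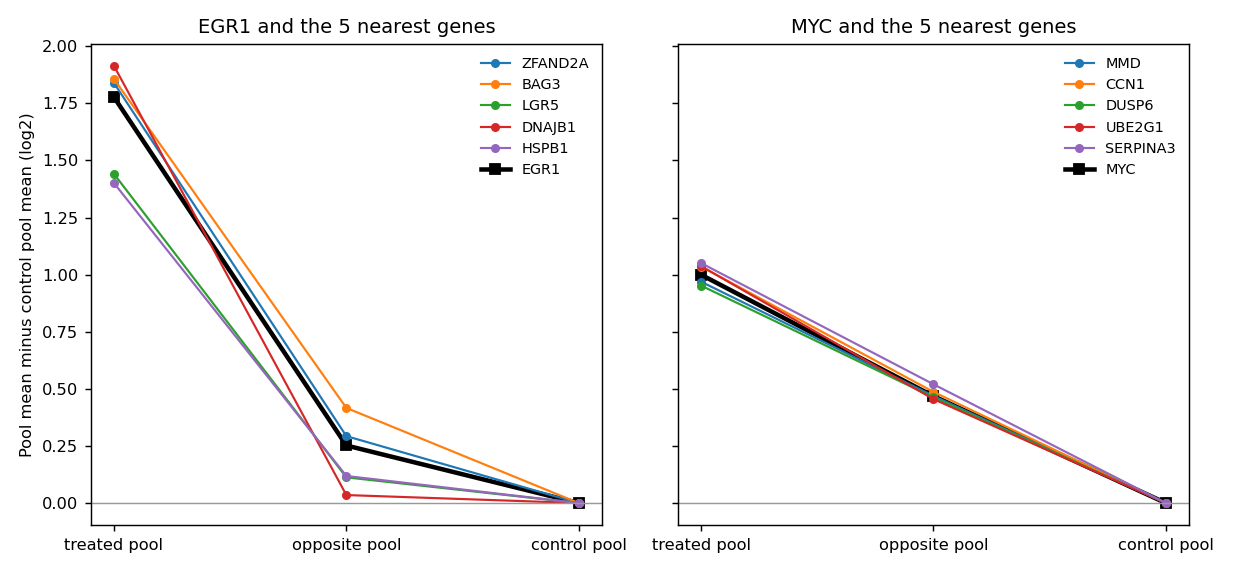
Pool means minus the control pool mean (log2, vertical axis) for EGR1 and MYC (black squares) and the 5 genes nearest to each (coloured circles), by pool. In the deposited values the EGR1 group lies close to control in the opposite-side pool, from 0.04 to 0.42, while the MYC group stands midway there, at 0.46 to 0.52.

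Some listed markers of non-epithelial tissue differed between pools, and most were not detected. The arrays carry probe sets for human genes while host cells are mouse, so these values do not measure host cells directly. Which cells the detected signals came from was not tested. Of 12 fibroblast and matrix markers 4 were detected, with FAP at the table's lowest value. TAGLN was 1.66 above control in the treated pool and 1.04 in the opposite-side pool, and VIM 1.14 and 1.26. COL1A1 lay 0.67 and 0.50 above control, and FN1 differed by 0.01 and -0.05. The log2 of the list's summed level ran from 9.67 to 9.69 on treated, 9.43 to 9.46 on opposite-side and 8.57 to 8.70 on control arrays. Of 14 skeletal muscle markers 4 were detected, with treated ACTA1 at least 1.21-fold above either other pool and MYL11 1.60 above control. TNNT1 went the other way, at -0.45 from control in the treated pool and -0.31 in the opposite-side pool, and TNNT3 differed by 0.06 and 0.00. The summed muscle level was 8.46 to 8.51, 8.22 to 8.23 and 8.15 to 8.20 in treated, opposite-side and control arrays.

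Detected endothelial and leukocyte markers were 1 of 7 and 1 of 8, FLT1 and LYZ, with FLT1 at -0.04 from control in the treated pool and -0.19 in the opposite-side pool, and 0 of 3 measured red blood cell markers reached the floor. Endothelial CDH5 and leukocyte CD14, CSF1R and CD3E stood at the lowest value, and leukocyte PTPRC lay near it at 2.42 to 2.43. The leukocyte sum therefore does not track leukocytes as a group. The leukocyte sum, carried by LYZ, was 11.83 to 11.85 on treated, 11.74 to 11.78 on opposite-side and 11.59 to 11.64 on control arrays, and the endothelial sum 6.05 to 6.05, 5.99 to 6.00 and 6.06 to 6.09. The contrast between 5′ and 3′ control probe sets bears on RNA integrity, while a 5′ set alone also follows the level of its transcript. The 5′ set of ACTB was 1.12 above control in the treated pool and 1.28 above it in the opposite-side pool, and its 3′ set 0.23 and 0.15. For GAPDH the 5′ set lay -0.46 and -0.01 from control, and the 3′ set -0.03 and 0.00. The part of host tissue, RNA quality or array scaling in the differences of EGR1, MYC and the other members was not tested.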

How the data were processed

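Expression was measured on 6 human Affymetrix arrays of 54675 probe sets, 2 technical arrays for each of 3 RNA pools. Values as deposited by the authors span 2.37 to 14.5, which was read as a log2 scale. GCRMA is named per the submitters' processing notes, without a version, and no genome build is given in the sources used here. GCRMA as a method corrects background, applies quantile normalization and summarises probes, so low values collect at a shared minimum and global shifts are removed. Probe sets were named through the platform annotation and Entrez identifiers: 41097 named 1 gene, 1801 several and 11777 none. The probe set with the highest mean represented each of 19775 genes.

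The 10 genes and all lists were chosen with earlier results of these data known. Of each list, genes past the size rule and up to 4 others with the largest treated minus control differences were named (of the markers, up to 3 with the highest level). The size rule (floor of 5, minimum difference of 1) was run on simulated data whose only noise was the spread between arrays of a pool. It called 100 of 100 genes given a change of 1.5, 0 of 100 given 0.5 and 0 of 19575 left unchanged. Spread between animals or pools was not simulated, so this checks the working of the rule and not its rate of false calls. Medians over genes at the floor in both pools were added after seeing the data. Alternatives included other floors and differences, scalings, probe set choices, leaving out arrays, and limma 3.58.1 in R 4.3.3, which compares pools against array error only. Python 3.11.15, numpy 2.4.6, pandas 2.3.3 and matplotlib 3.10.9 were used. The number of arrays limits the precision.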

Additional observations from a re-analysis of the deposited data

How the results depend on the processing

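EGR1 stayed called higher than control and than the opposite side under all 17 alternatives run, with differences of 1.44 to 1.84 and 1.34 to 1.58. The number of the 10 genes called higher than control, 1 as reported, became 2 with a floor of 4 (FOSL1), with quantile normalization (MYC) and with limma without a block (FOSL1), 4 with a minimum difference of 0.5, and 1 to 2 when arrays were left out in turn. Over all 19775 genes these settings called 53, 49, 53, 293 and 45 to 48 higher, in place of 45. Against the opposite side the number of the 10 genes was 2 with a floor of 4 and with limma without a block, and 5 with a minimum of 0.5. Over all genes these settings called 26, 24 and 240 higher, in place of 20. At the minimum of 0.5, 1 of the 10 genes, FOS, was lower in the opposite side than in control, as were 308 of all genes. No other alternative changed the counts of the 10 genes.

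Over all genes the calls moved with the thresholds. A minimum of 0.5 gave 293 higher and 206 lower for treated against control, 240 and 130 for treated against opposite side and 173 and 308 for opposite side against control. A minimum of 1.5 gave 18 and 1, 8 and 0, and 2 and 0. A floor of 6 gave 4 lower in treated against control, and 11 higher and 7 lower in opposite side against control. Averaging probe sets gave 26 and 4 for treated against control and 5 and 3 for opposite side against control. Spike-in scaling gave 15 lower for treated against opposite side, and 32 and 4 for opposite side against control. limma with the technical number as a replicate block called EGR1 alone of the 10 genes higher in treated against control (1) and against opposite side (1). Over all genes it gave 37 and 6 for treated against control, 11 and 0 for treated against opposite side and 10 and 6 for opposite side against control. The technical numbers do not pair the arrays, since deviations from pool means of same-numbered arrays correlated at 0.0087 to 0.0206 over 7003 genes. The cause of these changes was not tested beyond the settings themselves. Differences below the floor are compressed towards the shared minimum, which limits what can be read for FOSB and FOSL1.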
